A study of Homo sapiens with 6 samples.

Results

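The replication-dependent histone genes were examined by histone class in MCF10A cells depleted of PAX9, a paired box transcription factor. Members were the rows of the deposited gene expression table whose gene column held a symbol of the HIST1, HIST2, HIST3 or HIST4 clusters for histone H1, H2A, H2B, H3 or H4. There were 64 such rows of 41656 in all, and they carried 70 histone symbols. MCF10A is an established, non-tumorigenic line of human breast epithelial cells, so the values describe 1 cell line. Cells received 30 nM of a non-targeting siRNA (siNT) or of a pool of siRNAs against PAX9 (siPAX9) for 72 hours, with 3 samples in each group. Poly(A)+ RNA was sequenced, and the table gives 1 pooled FPKM (fragments relative to transcript length and to library size) for each group and row. With 1 pooled value per group, and no read count behind a row, no error could be given and no test over samples was possible. A row was called higher or lower where the siPAX9 and siNT values differed at least 2-fold, and a log2 change is that of siPAX9 over siNT throughout.

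The targeted gene was measured first. PAX9 was at 2.80 FPKM in siNT cells and 0.325 FPKM in siPAX9 cells, a log2 change of -3.10. Epithelial genes that mark this line were abundant in both groups. KRT17, a basal keratin and the most abundant of the 7 epithelial markers, was at 1718 FPKM in siNT cells and 2088 FPKM in siPAX9 cells, and KRT5 was at 1558 and 1807 FPKM. The 7 markers summed to 3508 and 4199 FPKM, with CDH1, a general epithelial gene, at least 2-fold higher and EPCAM, another such gene, at least 2-fold lower in siPAX9 cells. The luminal hormone receptor genes ESR1 and PGR summed to 0.0572 and 0.317 FPKM.

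Histones package DNA into nucleosomes. Histones H3 and H4 form the core around which DNA first wraps, dimers of H2A and H2B complete the particle, and the linker histone H1 binds where DNA enters and leaves it. Replication-dependent histone genes lie in clusters and are transcribed mainly in S phase, driven by NPAT at histone locus bodies. Their mRNAs are the exception among those of protein-coding genes: most end just past a conserved stem-loop that is bound by SLBP, and carry no poly(A) tail. Polyadenylated forms of some of these genes, made with a signal further downstream, are known from differentiated and resting cells. A poly(A)+ library therefore reads the tailed forms and whatever untailed RNA was carried along, not the whole histone mRNA pool, and these could not be separated here.

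The stem-loop is shown for members on which the results turn and for the replication-independent gene H2AFX, from the GRCh37 genome and the GENCODE annotation of release 44 placed on it. The 16 bases of the stem-loop are in capitals, with 5 bases on each side in lower case, and each sequence is given on the strand of the mRNA.
HIST1H1C: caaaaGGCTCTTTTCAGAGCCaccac
HIST1H2AC: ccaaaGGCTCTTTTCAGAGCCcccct
HIST3H2A: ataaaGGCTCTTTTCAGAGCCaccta
HIST1H2BC: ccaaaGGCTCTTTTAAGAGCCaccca
HIST1H2BK: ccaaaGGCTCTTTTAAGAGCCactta
HIST1H3E: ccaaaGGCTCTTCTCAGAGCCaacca
HIST1H4H: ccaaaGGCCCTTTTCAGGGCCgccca
HIST1H4J: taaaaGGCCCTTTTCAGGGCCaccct
HIST1H4K: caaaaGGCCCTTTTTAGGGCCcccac
H2AFX: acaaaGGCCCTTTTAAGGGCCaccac
All 10 lie in the 3' UTR, between 22 and 49 bases past the stop codon. The HIST1H1C stretch lies at chr6:26055967-26055992 on the minus strand, that of HIST1H4H at chr6:26285354-26285379 on the minus strand and that of HIST3H2A at chr1:228645065-228645090 on the minus strand. The first and last 6 bases of the capitals pair to form the stem, and the 4 bases between them form the loop. The search pattern was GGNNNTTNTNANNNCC with a fully paired stem, on the mRNA strand within 200 bases after an annotated stop codon. Of the 70 member symbols, 67 were matched to the annotation and 64 had an annotated stop codon, and 62 of these 64 held the pattern. HIST1H2AG and HIST1H2AK did not hold these letters in that window. Among 19641 other protein-coding genes, 7 (0.0356%) held it. These included the replication-independent gene H2AFX and further histone genes without a symbol of their own in the table. They also included APLP1 and DLEU7, which are not histone genes. There were 8 different stem-loops among the members. The commonest, that of HIST1H1C, was found in 37 symbols of classes H1, H2A, H2B and H3, and the form shown for HIST1H4H was found in 9 symbols, all of class H4. Among the members, class H4 thus had a stem of its own, while the other classes shared theirs.

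Histone rows were higher in siPAX9 cells more often than lower. Of the 64 rows, 36 were marked as testable (status OK) in the deposited table, and 35 of these had a value above 0 in both groups. At least 2-fold higher values in siPAX9 cells were found for 20 of the 35 rows, against 8.41% of the 13599 named rows, those with a gene symbol, that met the same criteria. At least 2-fold lower values were found for 0 of the 35 rows, against 7.06% of the named rows. The remaining 15 rows differed by less than 2-fold. The higher count depended on how low values were handled: with 1 added to each FPKM it was 10 of the 35 rows, against 4.13% of the named rows, and the count of lower rows stayed at 0, against 4.21%. The median log2 change was 1.09 over the 35 rows and -0.05 over the named rows (0.67 and -0.04 with 1 added). The log2 changes of the 35 rows ran from -0.72 to 2.79, so the members did not move as 1 block, and 8 of the 35 had a lower value in siPAX9 cells.

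The 35 rows are not all members, since a row of low level could be marked testable through its higher group alone. The other 28 rows, none above 0.535 FPKM in either group, did not show the same excess. Of these, 8 were listed at 0 in both groups, 3 in siNT cells only and 4 in siPAX9 cells only. Of the 13 with a value above 0 in both groups, 5 were higher and 8 lower in siPAX9 cells. These 13 rows were not set beside named rows that were also outside the mark. HIST1H2BF was marked testable but listed at 0 in siNT cells, with 0.791 FPKM in siPAX9 cells. With the mark ignored, 21 of 48 rows were at least 2-fold higher, against 14.0% of 17834 named rows, and 5 were at least 2-fold lower, against 8.20%. The median log2 change was then 0.44, and 0.01 over the named rows. Of these 17834 named rows, 13599 were testable, so their shares are not those of rows outside the mark. A mean FPKM over both groups of at least 1 was a limit chosen after the values were seen. Of the 25 rows that met it, 17 were at least 2-fold higher, against 6.28% of named rows with such a mean. Rows below 1 FPKM in siNT cells could meet it through siPAX9 cells alone. Examples were HIST1H2BG, at 0.940 and 4.45 FPKM, and HIST4H4, at 0.518 and 1.87 FPKM. Among all 35 rows, 16 were below 1 FPKM in siNT cells. With at least 1 FPKM in the higher group, the count was 18 of 27 rows, against 7.27% of named rows, and 8 of the 18 were below 1 FPKM in siNT cells and passed through siPAX9 cells alone.

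**Figure D1:**
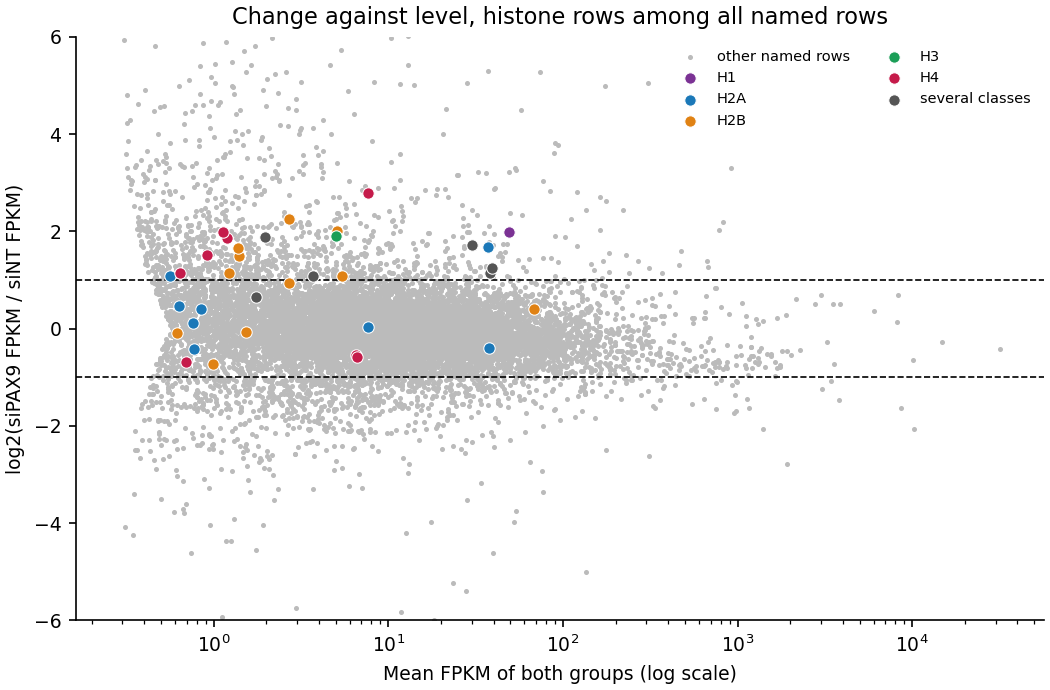
log2 change of siPAX9 over siNT (vertical axis) against the mean FPKM of both groups (horizontal axis, log scale) for 13599 named rows in grey and 35 histone rows coloured by class, with dashed lines at a 2-fold difference. The histone rows lie between -0.72 and 2.79, and 37 other rows fall outside the vertical axis.

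The levels of these rows were spread over a wide range, and a few rows held most of the sum. The median level of the 35 rows was 1.36 FPKM in siNT cells and 3.11 FPKM in siPAX9 cells, below the medians of 9.17 and 8.88 FPKM over the named rows. Summed over all 64 rows, histone FPKM was 254 in siNT cells and 495 in siPAX9 cells, a ratio of 1.95. The 8 rows that reached 10 FPKM in either group held 79.3% and 83.3% of that sum. In siNT cells the row order was led by HIST1H2BK and HIST3H2A, and in siPAX9 cells by HIST1H1C and HIST1H2BK. The sums include both rows that begin with HIST2H2AA4, which share their coordinates.

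**Figure D2:**
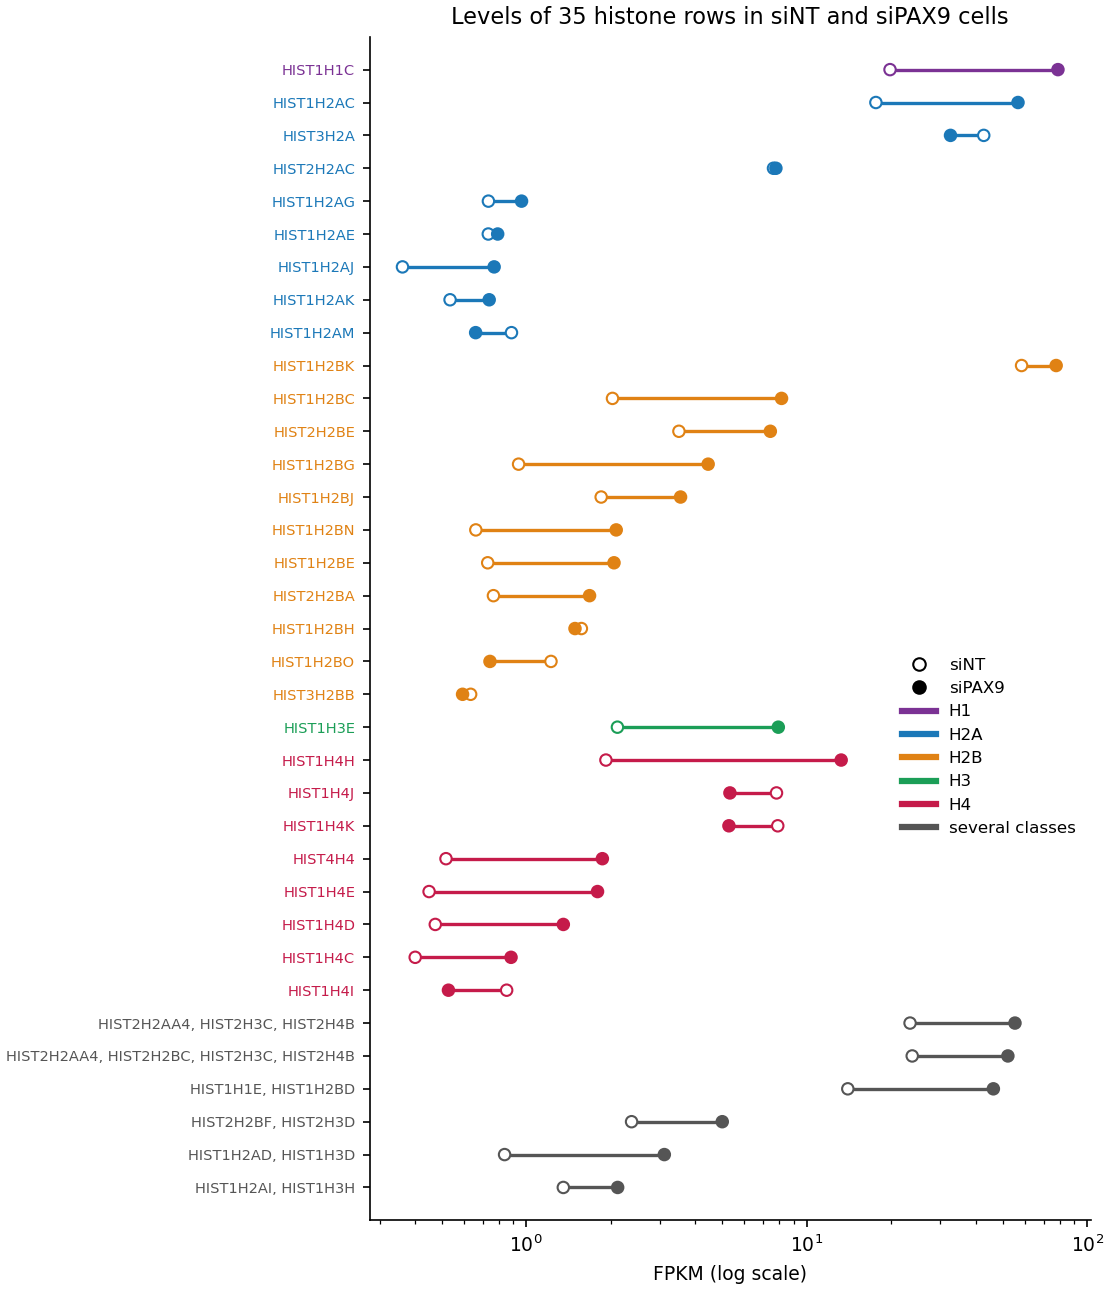
FPKM (horizontal axis, log scale) of the 35 histone rows in siNT cells (open circles) and siPAX9 cells (filled circles), 1 pooled value per group, with rows grouped and coloured by class. HIST1H1C went from 19.8 to 78.7 FPKM, while HIST3H2A was at 42.8 and 32.6 FPKM.

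Linker histone H1 was represented by 1 row of its own above the level for testing. HIST1H1C, which encodes the H1.2 subtype, has its deposited locus at chr6:26055967-26056699 (hg19). It was at 19.8 FPKM in siNT cells and 78.7 FPKM in siPAX9 cells, a log2 change of 1.99. That was the highest histone value in siPAX9 cells, next to 77.5 FPKM for HIST1H2BK. A further row joined HIST1H1E, another linker subtype, to the H2B gene HIST1H2BD, and was at 14.0 and 46.3 FPKM (log2 change of 1.72). Reads of these 2 genes could not be separated in that row. The rows of HIST1H1A, HIST1H1B, HIST1H1D and HIST1H1T were not testable. HIST1H1T, the testis subtype, was at 0.0260 FPKM in siNT cells and 0.535 FPKM in siPAX9 cells. Rows of class H1 alone held 7.89% of the summed histone FPKM in siNT cells and 16.0% in siPAX9 cells, the largest gain in share of any single class. The share of rows of class H2A alone went from 28.2% to 20.5%, and of H2B alone from 28.6% to 22.4%. Rows of H4 alone went from 8.03% to 6.17%, and of H3 alone from 1.49% to 1.78%. The single-class sums whose share fell were nonetheless higher in siPAX9 cells, with H2B at 72.8 and 111 FPKM and H4 at 20.4 and 30.5 FPKM. The total also holds the 6 rows of several classes, at 65.7 FPKM in siNT cells and 164 FPKM in siPAX9 cells. The share of a whole class can therefore not be given.

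Class H2A had 8 rows in the count, 2 of them at least 2-fold higher, against 8.41% of the named rows. With 1 added to each FPKM, 1 of them was, against 4.13%. The median log2 change was 0.25 (0.11 with 1 added, and 0.0285 over rows with at least 1 FPKM in the higher group), with a range from -0.42 to 1.68. HIST1H2AC, a core H2A gene whose deposited locus runs over chr6:26124372-26139437, was at 17.7 FPKM in siNT cells and 56.7 FPKM in siPAX9 cells (log2 change of 1.68). HIST3H2A, the H2A gene of the small cluster on chromosome 1, had the highest H2A level in siNT cells and moved the other way, from 42.8 to 32.6 FPKM (log2 change of -0.39). HIST2H2AC was nearly level at 7.62 and 7.77 FPKM. The other 5 rows, HIST1H2AE, HIST1H2AG, HIST1H2AJ, HIST1H2AK and HIST1H2AM, stayed below 1 FPKM in both groups, and HIST1H2AJ was the only 1 of them past 2-fold (log2 change of 1.09). The H2A rows therefore differed by gene, and the single-class H2A sum of 71.6 and 101 FPKM was carried by HIST1H2AC and HIST3H2A in both groups.

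Class H2B had 11 rows in the count, 6 of them at least 2-fold higher, against 8.41% of the named rows. With 1 added to each FPKM, 2 of them were, against 4.13%. The median log2 change of the H2B rows was 1.08 (0.67 with 1 added), with a range from -0.72 to 2.25. HIST1H2BK, the most abundant of them, was within 2-fold at 58.4 FPKM in siNT cells and 77.5 FPKM in siPAX9 cells. HIST1H2BG was at 0.940 and 4.45 FPKM (log2 change of 2.25), the largest difference of the class. HIST1H2BC was at 2.03 and 8.14 FPKM (log2 change of 2.00). These rows were an order of magnitude below HIST1H2BK in siNT cells. HIST2H2BE was at 3.50 and 7.42 FPKM, and HIST1H2BE was at 0.729 and 2.06 FPKM. HIST1H2BN was at 0.661 and 2.09 FPKM. HIST2H2BA, an H2B pseudogene that is transcribed, was the last of the 6 at 0.764 and 1.68 FPKM. Below the 2-fold limit, HIST1H2BJ was at 1.85 and 3.55 FPKM (log2 change of 0.94), and HIST1H2BH was at 1.57 and 1.49 FPKM. HIST1H2BO was at 1.23 and 0.743 FPKM, and HIST3H2BB stayed below 1 FPKM in both groups. The lowest changes of the class were thus those of HIST1H2BO, HIST3H2BB and HIST1H2BH, at -0.72, -0.10 and -0.08.

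Class H3 stood out for how few of its rows were measured. Of 9 rows with H3 symbols alone, only HIST1H3E was in the count. It was at 2.12 FPKM in siNT cells and 7.92 FPKM in siPAX9 cells, a log2 change of 1.91. Of the 8 others, 4 were at least 2-fold lower in siPAX9 cells, against 8.20% of the named rows with the mark ignored, all at levels that were not testable: HIST1H3B, HIST1H3F, HIST1H3G and HIST1H3J, with log2 changes of -1.79, -2.04, -1.35 and -1.56. HIST1H3G, the highest of these 4 in siNT cells, was at 0.433 and 0.170 FPKM. HIST1H3C and HIST1H3I were listed at 0 in siPAX9 cells only and HIST1H3A in siNT cells only, and HIST3H3 was at 0.367 and 0.373 FPKM. The 8.20% covers named rows above 0 in both groups, testable or not, so HIST1H3A, HIST1H3C and HIST1H3I fall outside that comparison. The direction of the class thus rested on which rows entered: its median was 1.91 with HIST1H3E alone and -1.46 over the rows with a value above 0 in both groups. The fifth row outside the mark that was at least 2-fold lower was an H2A row, HIST1H2AH, at 0.150 and 0.0706 FPKM.

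Class H4 had 8 rows in the count and split by gene, with 5 rows at least 2-fold higher, against 8.41% of the named rows. The other 3 rows were below 0, and the median log2 change was 1.33. With 1 added to each FPKM, only HIST1H4H stayed at least 2-fold higher, against 4.13% of the named rows, and the median was 0.55. HIST1H4H, at chr6:26284618-26285763, had the largest log2 change of all 35 rows, 2.79, from 1.92 FPKM in siNT cells to 13.3 FPKM in siPAX9 cells. HIST4H4, a single gene on chromosome 12, was at 0.518 and 1.87 FPKM. HIST1H4E was at 0.451 and 1.80 FPKM, HIST1H4D was at 0.474 and 1.36 FPKM, and HIST1H4C, the fifth row, stayed below 1 FPKM (log2 change of 1.14). The H4 rows with the highest levels in siNT cells were on the other side of 0. HIST1H4J was at 7.81 and 5.33 FPKM (log2 change of -0.55), and HIST1H4K was at 7.89 and 5.28 FPKM (log2 change of -0.58). HIST1H4I stayed below 1 FPKM, with a log2 change of -0.69. The H4 genes in the count encode the same core protein, so these differences are between loci and not between H4 proteins.

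HIST1H4J and HIST1H4K cannot be treated as separate measurements. All of the 76-base stretches of the coding sequence of each, the length of a read, were also present in the other (100% shared), so their near-equal levels may be a division of the same reads. HIST1H2AI and HIST1H2AJ shared 81.6% and 83.2% of their stretches. Of the 67 matched symbols, 46 shared no such stretch with another member, and 11 shared over 10%. Among the other rows of a single symbol in the count, HIST2H2BE shared 33.99%, HIST2H2AC 23.7% and HIST1H2BE 13.2%, while HIST1H4H, HIST1H1C, HIST1H2AC and HIST1H3E shared 0%. Only members were compared with each other, so stretches shared with histone copies outside them were not counted.

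The remaining rows held symbols of several classes. The 2 rows that begin with HIST2H2AA4 cover the same part of the HIST2 cluster, chr1:149804194-149832751, with H2A, H3 and H4 genes and, in 1 of them, the H2B pseudogene HIST2H2BC. They were at 23.8 and 52.2 FPKM (log2 change of 1.13) and at 23.4 and 55.3 FPKM (log2 change of 1.24). HIST2H2BF with HIST2H3D was at 2.38 and 5.00 FPKM (log2 change of 1.07). In the HIST1 cluster, HIST1H2AD with HIST1H3D was at 0.838 and 3.11 FPKM (log2 change of 1.89), and HIST1H2AI with HIST1H3H was at 1.36 and 2.12 FPKM (log2 change of 0.64). Together with the HIST1H1E row, 5 of the 6 rows of several classes were at least 2-fold higher, against 8.41% of the named rows. With 1 added to each FPKM, 4 were, against 4.13%. None of the 6 can be assigned to 1 class.

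By cluster, at least 2-fold higher values were found for 14 of 26 rows of HIST1 on chromosome 6, 5 of 6 rows of HIST2 and the 1 row of HIST4, and for 0 of 2 rows of HIST3 (8, 2, 0 and 0 rows with 1 added to each FPKM). The share of the named rows was 8.41% (4.13% with 1 added), so 0 of 2 rows is near that share. The HIST2 rows include both rows that begin with HIST2H2AA4, which share their coordinates. They also include HIST2H2BA, at chr1:120906033-120914842, away from the others. The median log2 change was 1.11 for HIST1, 1.11 for HIST2 and -0.24 for HIST3. HIST1 itself is divided by a stretch of 814 kb without a histone row, its largest gap, and the parts on either side differed. This division was chosen after the values were seen. The first part, chr6:25726290-26285763, held 14 rows in the count, of which 12 were at least 2-fold higher, with a median log2 change of 1.81 and a summed FPKM of 63.7 in siNT cells and 227 in siPAX9 cells. The second part, chr6:27100094-27861669, held 12 rows in the count, of which 2 were at least 2-fold higher, HIST1H2AJ and HIST1H2BN, with a median log2 change of 0.40 and a summed FPKM of 82.5 and 100.3. The count of the second part was closer to the 8.41% of the named rows than that of the first. The split of class H4 followed this division. All 4 H4 rows in the count of the first part were at least 2-fold higher, and all 3 of the second part, HIST1H4I, HIST1H4J and HIST1H4K, were below 0. Of these 3, HIST1H4J and HIST1H4K are not separate measurements, and HIST1H4I, below 1 FPKM, shares its deposited locus with HIST1H2BK. With 1 added to each FPKM, 8 rows of the first part and 0 of the second were at least 2-fold higher, against 4.13% of the named rows. The medians were then 1.33 and 0.18, and of the 4 H4 rows of the first part only HIST1H4H was at least 2-fold higher. The exceptions in the first part, among rows in the count, were HIST1H2AE and HIST1H2BH, with log2 changes of 0.11 and -0.08. The contrast rests on 14 of 33 rows of the first part and 12 of 20 of the second. Outside the count, HIST1H3B, HIST1H3F and HIST1H3G in the first part were at least 2-fold lower and HIST1H1T was at least 2-fold higher, and HIST1H2AH and HIST1H3J in the second part were at least 2-fold lower.

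**Figure D3:**
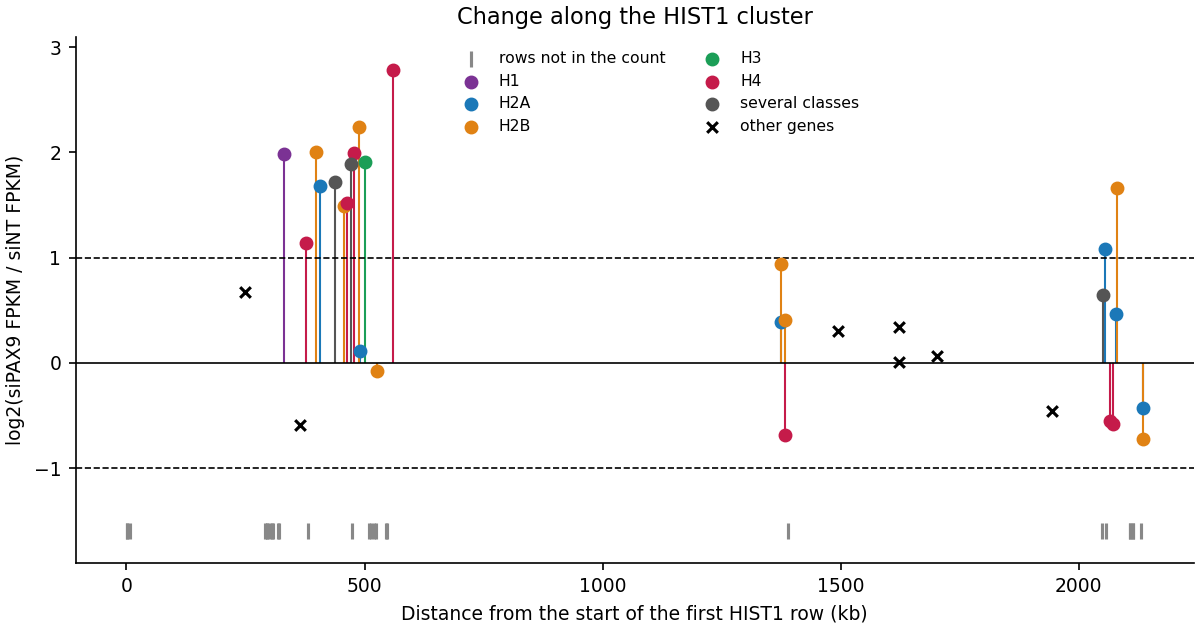
log2 change of siPAX9 over siNT (vertical axis) of the 26 HIST1 rows in the count against their distance from the start of the first HIST1 row in kb (horizontal axis), coloured by class, with other genes as crosses and rows outside the count as ticks. Of the 14 rows before the largest gap, 12 are above the 2-fold line, and of the 12 rows after it, 2 are, against 8.41% of the named rows.

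The genes of other kinds that were compared within the same stretches did not reach 2-fold. In the first part these were TRIM38, at 7.36 FPKM in siNT cells and 11.7 FPKM in siPAX9 cells, and HFE, at 4.27 and 2.84 FPKM. In the second part, 0 of 5 were past 2-fold: LINC01012, ZNF391, ZNF184, PRSS16 and ZNF204P, with a median log2 change of 0.07. ZNF391 and ZNF204P have the same deposited locus. With so few such genes, 0 past 2-fold is near the 8.41% higher and 7.06% lower among the named rows. The comparison between histone and other rows of the region was not tested.

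Histone genes with a longer annotated transcript were next set beside those without one. Among the 29 rows of a single symbol in the count, 11 had an annotated transcript that ended more than 100 bases past the stem-loop, or past the stop codon where no stem-loop was found. Of these, 8 were at least 2-fold higher in siPAX9 cells, against 8.41% of the named rows, and the median log2 change was 1.66. Of the 16 rows without such a transcript, 5 were at least 2-fold higher, against the same 8.41%, with a median log2 change of 0.25. With 1 added to each FPKM, the counts were 4 of 11 and 1 of 16, with medians of 0.90 and 0.11. The share of the named rows was then 4.13%, and 1 of 16 is near it. Of the remaining 2 rows, HIST1H2BG was not matched to the annotation and HIST2H2BA had no annotated stop codon to measure from. HIST1H4H, HIST1H2BC, HIST1H3E and HIST1H2AC were among the genes with the longer form. Both sides had exceptions. HIST3H2A and HIST3H2BB had a longer form and log2 changes of -0.39 and -0.10. HIST1H1C had none annotated, with its only transcript ending 4 bases past the stem-loop, and a log2 change of 1.99. The grouping overlaps with the division of HIST1, since many rows without a longer form lie in the second part of that cluster. In the first part, HIST1H4C, HIST1H4D and HIST1H4E also had no longer form yet were at least 2-fold higher. HIST1H2AE and HIST1H2BH had none either and were within 2-fold. By the ends of the deposited loci instead, 4 of 7 rows that ran more than 100 bases past were at least 2-fold higher, with a median of 1.08, and 9 of 20 that did not, with a median of 0.70 (3 and 2 rows, and medians of 0.90 and 0.28, with 1 added). Of the 7, HIST1H2BK and HIST1H4I have the same deposited locus, chr6:27106071-27114637, although they lie on opposite strands. Of 11 genes with several annotated exons, 8 were at least 2-fold higher, against 6 of 17 with 1 exon (4 and 1 with 1 added). The shares of 8.41% and 4.13% apply to the counts by locus end and by exons as well. Whether the reads came from the longer forms was not tested, since the table has 1 value per row.

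Many H2A and H2B genes lie head to head and share the stretch between their starts. In the RefSeq promoter table (GRCh38.p14), 11 such pairs had starts between 194 and 248 bases apart. In 7 pairs both genes had a single-symbol row in the count. Only HIST1H2AC and HIST1H2BC were both at least 2-fold higher. In 3 pairs the H2B gene was past 2-fold and the H2A gene was not: HIST1H2BG with HIST1H2AE, HIST1H2BN with HIST1H2AK, and HIST2H2BE with HIST2H2AC. In the other 3 pairs neither was. The log2 change of the H2B gene was above that of the H2A gene in 6 of 7 pairs, all but HIST1H2AM with HIST1H2BO. The widest difference was that of HIST1H2BG, at 2.25, and HIST1H2AE, at 0.11. With 1 added to each FPKM, only HIST1H2BG with HIST1H2AE was on different sides of the 2-fold limit, and the H2B gene was above in 5 of 7 pairs.

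**Figure D4:**
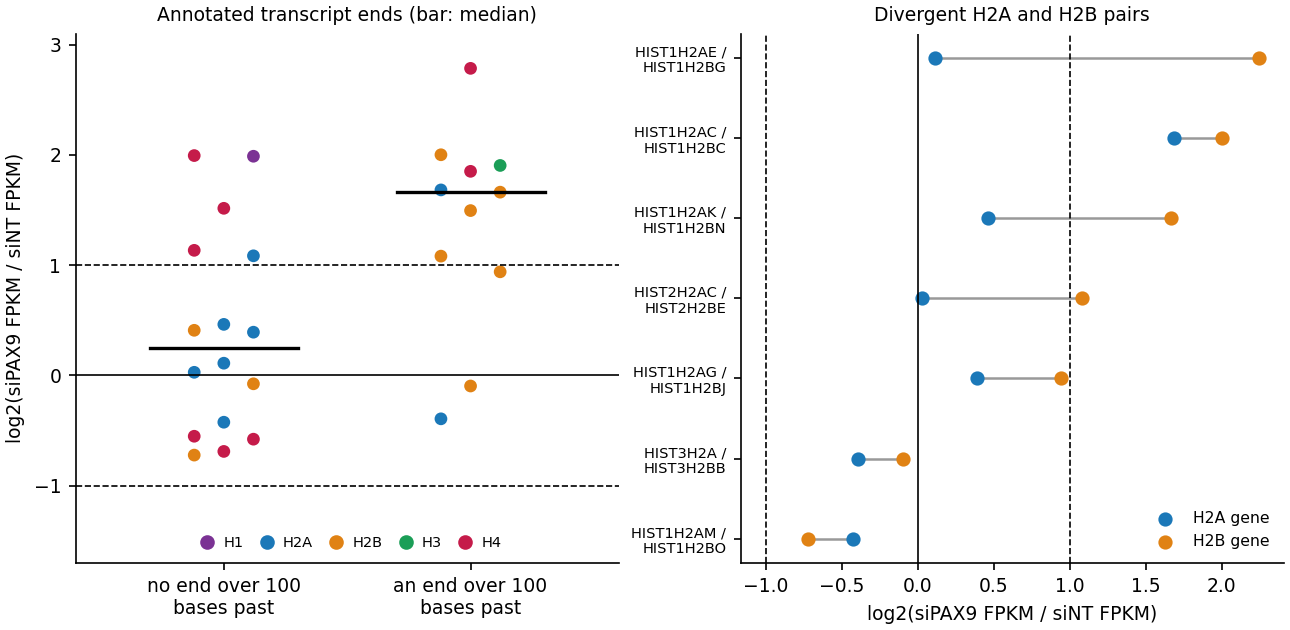
Left, log2 change of siPAX9 over siNT (vertical axis) of 27 single-symbol histone rows by whether an annotated transcript ends over 100 bases past the stem-loop, or past the stop codon where there is no stem-loop, coloured by class, with a bar at each median (0.25 and 1.66). Right, log2 change (horizontal axis) of both genes of 7 divergent pairs, in 6 of which the H2B gene lies further right.

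The start regions of these pairs are shown because their genes moved together in 1 pair and apart in another. Each sequence holds the 150 bases before the RefSeq start (GRCh38.p14) on the strand of the gene, and capitals mark matches on either strand to the TATA box (TATAAA), the CCAAT box (CCAAT), the octamer of H2B promoters (ATTTGCAT) and the AC box of H1 promoters (AAACACA).
HIST1H2AC: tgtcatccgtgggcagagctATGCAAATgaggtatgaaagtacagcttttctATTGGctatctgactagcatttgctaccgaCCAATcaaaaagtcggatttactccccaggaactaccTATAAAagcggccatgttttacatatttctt
HIST1H2BC: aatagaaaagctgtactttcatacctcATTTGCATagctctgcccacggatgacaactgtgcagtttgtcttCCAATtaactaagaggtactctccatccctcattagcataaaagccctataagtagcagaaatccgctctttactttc
HIST1H2AE: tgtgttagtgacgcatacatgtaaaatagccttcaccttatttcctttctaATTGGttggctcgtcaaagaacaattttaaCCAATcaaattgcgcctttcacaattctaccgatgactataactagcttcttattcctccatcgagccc
HIST1H2BG: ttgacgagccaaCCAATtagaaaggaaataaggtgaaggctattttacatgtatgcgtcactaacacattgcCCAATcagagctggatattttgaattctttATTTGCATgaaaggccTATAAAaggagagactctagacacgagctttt
HIST1H1C: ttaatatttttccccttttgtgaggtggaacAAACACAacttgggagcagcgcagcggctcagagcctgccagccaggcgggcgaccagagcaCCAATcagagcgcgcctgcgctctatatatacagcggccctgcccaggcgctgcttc
The stretches of HIST1H2AC and HIST1H2BC overlap on opposite strands, as do those of HIST1H2AE and HIST1H2BG. In the order shown they lie at chr6:26124022-26124171, chr6:26123927-26124076, chr6:26216771-26216920, chr6:26216689-26216838 and chr6:26056471-26056620. Of the 70 member symbols, 62 were matched to a promoter from 250 bases before to 50 bases after the start. In such promoters the octamer was found for 14 of 18 H2B symbols and 11 of 15 H2A symbols, against 1.77% of 35116 promoters, and for 1 of 11 H3, 0 of 12 H4 and 0 of 6 H1 symbols. That H3 symbol, HIST1H3D, was matched to the same stretch as the H2A symbol HIST1H2AD, so the stretch was counted in both classes. The windows of paired H2A and H2B genes overlap as well, and in 8 of the 11 pairs the octamer was found for both genes, so 1 octamer can be counted in both classes. The AC box was found for 6 of 6 H1 symbols, against 5.64% of all promoters, and elsewhere only for the H2A symbol HIST2H2AC and the H3 symbol HIST2H3C. The CCAAT box was found for all 50 symbols of classes H1, H2A, H2B and H3 and for 3 of 12 H4 symbols, against 34.6% of all promoters, and the TATA box for 41 of 62 symbols, against 11.5%. The overlap of paired windows bears on the counts of the CCAAT and TATA boxes as well. HIST1H2BC and HIST1H2AE were counted with a TATA box, though the 150 bases shown for them hold none. A match is only a match of letters.

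The other genes of histone supply had median log2 changes below 0, unlike the histone rows. Of 18 genes for histone gene transcription and mRNA 3' end formation, 0 were past 2-fold in either direction, against 8.41% higher and 7.06% lower among the named rows, and the median log2 change was -0.27. NPAT, the coactivator of histone gene transcription, was at 3.94 FPKM in siNT cells and 4.19 FPKM in siPAX9 cells. SLBP, which binds the stem-loop and stands in the S phase list as well, was at 20.4 and 16.7 FPKM. Neither differed by the 2-fold seen in 20 of the 35 histone rows. Of 13 genes for cleavage and polyadenylation, 2 were at least 2-fold lower, against 7.06% of the named rows, with a median of -0.31. NUDT21, a subunit of cleavage factor Im that guides the choice of poly(A) site, was at 45.6 and 21.0 FPKM. CPSF1, which recognises the poly(A) signal as part of its complex, was at 133 and 17.6 FPKM. Its row also carried the microRNA gene MIR939, so the value cannot be given to CPSF1 alone. Among the 18 genes SRRT was read from a row shared with TRIP6, and among the 13 PABPN1 from a row shared with BCL2L2.

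The medians of the histone chaperones and of the replication-independent histones were below 0, though most of these genes stayed within 2-fold. Of 14 chaperone genes, 3 were at least 2-fold lower, against 7.06% of the named rows, and the median log2 change was -0.56. ASF1B, which hands H3 and H4 to the assembly factors, was at 7.02 and 2.49 FPKM, CHAF1B, a subunit of the assembly factor CAF-1, was at 4.59 and 1.73 FPKM, and NASP, which holds a reserve of H3 and H4, was at 22.9 and 11.2 FPKM. Of 14 replication-independent histone genes, 12 were in the count, 2 were at least 2-fold lower and 0 higher (7.06% and 8.41% of the named rows), with a median of -0.47. CENPA, the centromeric H3 variant, was at 9.28 and 2.42 FPKM, and H2AFZ, which encodes H2A.Z, was at 177 and 73.1 FPKM. H2AFX, which has both a stem-loop and a polyadenylated form, was at 28.2 and 19.2 FPKM (log2 change of -0.56). The 14 genes summed to 1047 FPKM in siNT cells and 738 FPKM in siPAX9 cells, with H3F3A the most abundant. The summed levels of the replication-dependent rows and of these variants thus went in opposite directions. The sum over the 13599 named rows was also lower, at 570037 FPKM in siNT cells and 471127 FPKM in siPAX9 cells.

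**Figure D5:**
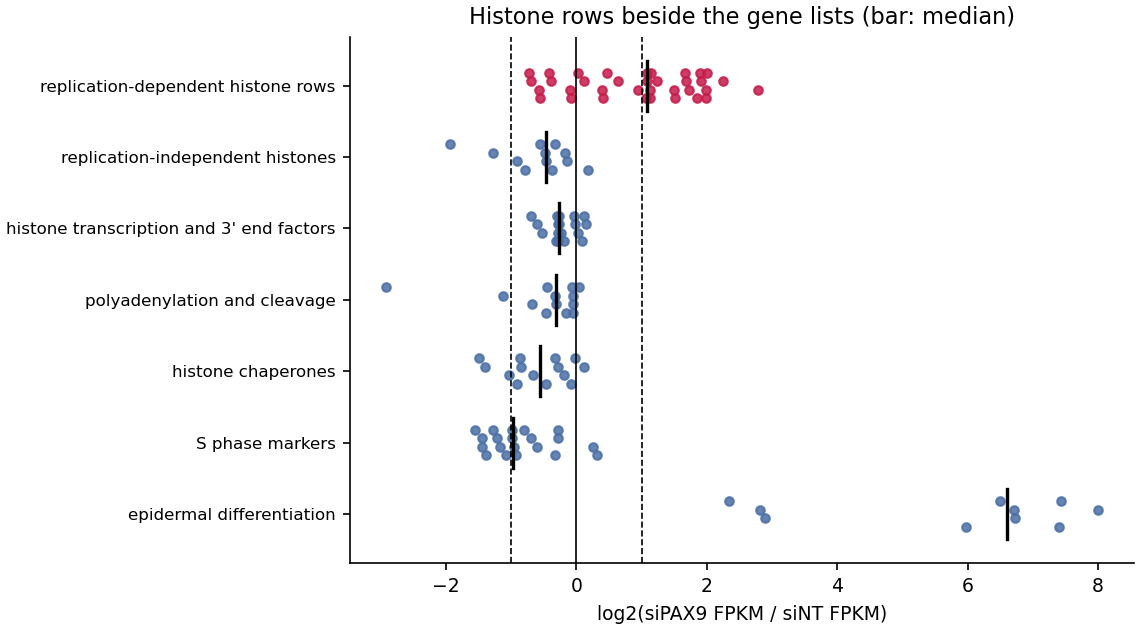
log2 change of siPAX9 over siNT (horizontal axis) of the 35 histone rows and of each gene in 6 lists (rows of the plot), with dashed lines at 2-fold and a bar at each median. The histone rows have a median of 1.09 and the S phase markers of -0.97, and the epidermal differentiation genes lie furthest right, several of them over siNT values near 0.

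Markers of S phase and of differentiation also differed between the groups. Of 20 S phase genes, 8 were at least 2-fold lower and 0 higher, against 7.06% and 8.41% of the named rows, with a median log2 change of -0.97, and their sum was 319 FPKM in siNT cells and 175 FPKM in siPAX9 cells, with PCNA the most abundant. The largest of these decreases were in MCM2, MCM6 and MCM5, subunits of the replicative helicase, at log2 changes of -1.56, -1.44 and -1.44, and in CDC45 and GINS2, its partners, at -1.39 and -1.28. Of 16 epidermal differentiation genes, 10 were in the count and were at least 2-fold higher, against 8.41% of the named rows. Several of them were near 0 in siNT cells and could be marked testable through siPAX9 cells alone, so the mark favoured this direction and the size of their changes is uncertain. The 4 genes in the count with at least 1 FPKM in siNT cells were also at least 2-fold higher. The 16 genes summed to 38.1 FPKM in siNT cells and 643 FPKM in siPAX9 cells, KRT10 was the most abundant in siNT cells, and KRT4, KRTDAP, LOR, CRNN and DSG1 were listed at 0 in siNT cells. KRT10 was at 21.0 and 148 FPKM, SPRR1B at 3.18 and 334 FPKM and SPRR1A at 0.532 and 56.4 FPKM. IVL, CALML5 and KRT13 were below 0.1 FPKM in siNT cells and at 15.8, 3.42 and 4.67 FPKM in siPAX9 cells. Most histone rows in the count were thus higher in the group with a lower sum of S phase genes and a higher sum of differentiation genes. The sum over the named rows was lower in that group as well. The part of S phase or of differentiation in the histone values was not tested. In bulk samples, fewer cells of a kind and less RNA per cell cannot be told apart.

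Markers of other cell types were low or unequal. Of the immune markers, CD3E was listed at 0 in both groups and PTPRC was at 0.0166 and 0.0922 FPKM, while CD14 was at 14.4 and 56.5 FPKM and made up nearly all of the list's sum of 14.5 and 56.6 FPKM. Of the endothelial markers, which summed to 2.58 and 0.505 FPKM, CDH5 was listed at 0 in siNT cells and PECAM1 was the most abundant. The 3 fibroblast markers summed to 6.31 and 42.0 FPKM, with DCN the most abundant at 5.85 and 37.9 FPKM and COL1A1 at 0.454 and 4.13 FPKM, and PDGFRA was at 0.00561 and 0.0117 FPKM. The part of CD14, DCN and COL1A1 in the histone values was not tested.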

How the data were processed

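RNA-seq of 6 MCF10A samples was used. In Partek Flow, the authors placed single-end 76-nt reads of poly(A)+ RNA on hg19 (Bowtie 2) and estimated levels with Cufflinks, and the deposited FPKM pools the 3 samples of each group. How libraries were scaled to each other is not given in the sources used here, and a pooled FPKM carries no read count for its row. The deposited log2 fold change, test statistic, p-value, q-value and significance columns hold the authors' own comparison and were not used. Rows marked OK (27319 of 41656) with FPKM above 0 in both groups entered, with no pseudocount. The 2-fold threshold is that of the study's methods, here without their q-value limit. No test was made. Where a symbol stood in several rows, the row with the highest FPKM was taken.

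Every testable histone row was named, with both values where the higher reached 1 FPKM, and from each list at most 5 genes past 2-fold per direction, plus SLBP, NPAT and KRT10. Also named were the most abundant gene of some lists, KRT5, and several markers outside the count. H2AFX, the neighbouring genes and the histone rows outside the count were named after their values were seen. Members and lists were chosen with earlier results of these data known. Alternatives were another row filter, a pseudocount of 1, centring, rows of 1 symbol, no pseudogenes, other folds and, added after the values were seen, 1 HIST2H2AA4 row left out and a minimum mean. Sequences came from GRCh37 with GENCODE release 44 and from RefSeq (GRCh38.p14). Older symbols were matched through RefSeq synonyms and, on GRCh37, by overlap with the deposited locus. Deposited loci are printed as listed, and coordinates of sequences count from 1. Python 3.11.15, numpy 2.4.6, pandas 2.3.3 and matplotlib 3.10.9 were used.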

Additional observations from a re-analysis of the deposited data

How the results depend on the processing

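No paired analysis was possible because the table has 1 pooled value per group, and no replicate could be left out for the same reason. The count of 20 histone rows at least 2-fold higher was 10 with 1 added to each FPKM and 3 at a 4-fold threshold, and 15 to 22 under the other alternatives. The 10 rows lost with 1 added were all at or below 7.42 FPKM in siPAX9 cells. The count of 0 rows at least 2-fold lower was 5 with the status mark ignored and 2 at a 1.5-fold threshold, and 0 elsewhere. The median log2 change of 1.09 was 0.44 with the mark ignored, 1.24 with at least 1 FPKM in the higher group, 1.24 with a mean FPKM of at least 1, 0.67 with 1 added and 1.14 after centring.

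The class medians kept their sign except for class H3, whose median of 1.91 became -1.46 with the mark ignored, as 5 rows of low level joined HIST1H3E. In the same setting the medians were 1.13 for H1, 0.0698 for H2A, 0.94 for H2B and 1.14 for H4. With 1 added they were 1.94, 0.11, 0.67, 1.52 and 0.55 for H1, H2A, H2B, H3 and H4, and after centring 2.04, 0.30, 1.13, 1.96 and 1.38. With at least 1 FPKM in the higher group, H2A was at 0.0285, H2B at 1.11 and H4 at 1.68. With a mean FPKM of at least 1, H2A was at 0.0285, H2B at 1.14 and H4 at 1.85. Without pseudogenes, H2B was at 1.01. Where the alternative's own construction does not show it, the cause was not tested. Single rows had no change of sign under any alternative.

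The limits are those of the table. A single FPKM per group has no error and no read count behind it, which bears most on rows below 1 FPKM. The library was poly(A)+, so levels are not those of the whole histone mRNA pool. The rows of several symbols and the pair HIST1H4J and HIST1H4K cannot be resolved. The minimum mean, the omission of 1 HIST2H2AA4 row and the division of HIST1 were chosen after seeing the data.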
